A study of Mus musculus with 686 samples.

Results

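The microRNA miR-122 was followed here through both of its mature strands, mmu-miR-122-5p and mmu-miR-122-3p, which are 2 of the 1964 miRNA rows counted in this series. The members were chosen by name, with earlier results of these data already known. There were 686 small RNA libraries covering 13 tissues, 58 of them from liver, and the mice were female BALB/cAnNTac. Every mouse belonged to spaceflight (FL), habitat ground control (HGC), housed on Earth in flight hardware, or vivarium ground control (VGC), housed in standard cages, and was 3 or 8 months old at the start. In Live Animal Return (LAR) the flight mice spent 39.5 days on the station and tissues were taken 2 to 4 days after splashdown, whereas in ISS Terminal (TERM) the mice were killed 22 to 24 days after launch, the spleen was dissected fresh into RNA Later, and the carcasses were frozen and the other organs dissected after thawing. Liver LAR had 10 FL, 9 HGC and 10 VGC libraries, and liver TERM had 10, 10 and 9. In flight mice the duration, reentry, recovery on Earth and the way tissue was kept differ between LAR and TERM and cannot be told apart. In ground mice, which did not fly, the time of collection and the handling of tissue differ as well. The LAR ground mice were also transported before dissection. All values are counts per 1 M miRNA counts of the library (CPM), which measure a share of the miRNA pool and not an absolute amount.

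MicroRNAs are short RNAs cut from a hairpin precursor, and one strand of the cut duplex is loaded into an Argonaute protein, where it represses messenger RNAs through its seed. miR-122 is made in hepatocytes, where it is the dominant miRNA and acts in cholesterol and lipid metabolism, in iron handling and in keeping the hepatocyte differentiated. Its 5p strand is the guide and its 3p strand the passenger, and hepatocytes that are damaged release miR-122 into blood, where it is used as a marker of liver injury. In bulk tissue such as this, fewer hepatocytes and less miR-122 per hepatocyte cannot be told apart.

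The miRNAs whose 13 tissue medians ran most like those of miR-122-5p were found by Pearson r on log2(CPM + 1) over 602 miRNAs. They were miR-1948-3p with r of 0.81, miR-101b-3p with 0.74, miR-194-2-3p with 0.70, miR-192-3p with 0.70 and miR-192-5p with 0.65. The same 5 miRNAs stood in the same order for the 3p strand. These values describe 13 points in which a single tissue, liver, lies far from the rest. Where libraries that did not resemble their own tissue were left out, as described below, 4 of the 5 kept their places and miR-192-5p moved to 7th. The mature sequences of the 4 companions found in RefSeq are shown with the seed (bases 2 to 8) in capitals, so that it can be seen that no 2 of them share a seed. On GRCm38.p6, miR-101b-3p lies at chr19:29135338-29135356, miR-194-2-3p at chr19:6264694-6264715, miR-192-5p at chr19:6264857-6264877 and miR-192-3p at chr19:6264900-6264921, all on the plus strand. The genes of miR-192 and miR-194-2 are neighbours in the genome.
mmu-miR-101b-3p: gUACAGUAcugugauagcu
mmu-miR-194-2-3p: cCAGUGGGgcugcuguuaucug
mmu-miR-192-3p: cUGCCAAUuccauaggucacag
mmu-miR-192-5p: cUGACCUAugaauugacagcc

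The companions were less restricted to liver than miR-122. The liver median of miR-192-5p, a miRNA of liver, gut and kidney, was 74631 CPM and exceeded the kidney median 2.80-fold. That of miR-101b-3p was 4924 CPM and exceeded the spleen median 5.71-fold. The medians of miR-1948-3p were 10.6 CPM in liver and 2.03 CPM in gonadal adipose tissue (GAT), the next tissue. For miR-122-5p the step from liver to the next tissue, GAT, was 271-fold with LAR and TERM together. Within each extraction the next tissue was pancreas. It stood at 682 CPM against 319656 CPM of liver in LAR, and at 3372 CPM against 339333 CPM in TERM.

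Library labels had to be examined before any level of miR-122 could be read, and this was done with 728 miRNAs from which both miR-122 strands were left out. The profile of 520 libraries was closest to the median profile of the tissue on their label, and 166 were closest to another tissue. Of the 166, 88 were labelled as fat depots, 46 of them as mesenteric adipose tissue (MAT), where 21 were closest to pancreas and 12 to spleen, so that 11 of 57 MAT libraries were matched in the sense used below. Only 12 of the 46 were in the mixed pools described next, against 119 of the 166. The libraries fell into 44 pools, which were read from the sample sheet. In 11 of these pools, holding 168 libraries, more than 1 in 3 profiles were closest to another tissue. Of the 58 liver libraries, 51 were closest to liver and 7 were not, and all 7 were in those mixed pools. A further 8 libraries labelled as other tissues were closest to liver, and all 8 were in mixed pools too. No library was relabelled. Values are given for all libraries and for those closest to their own label, and the latter are called matched.

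The level of miR-122 followed the profile and not the label in both sets of libraries. Among the 7 liver libraries closest to another tissue, miR-122-5p was 864 CPM in FL LAR mouse 2 and 1613 CPM in FL LAR mouse 4, both closest to pancreas. It was 396 CPM in HGC LAR mouse 12, closest to spleen, 158 CPM in VGC LAR mouse 12, closest to thymus, and 141 CPM in VGC LAR mouse 14, closest to kidney. It was 265 CPM in HGC TERM mouse 11, closest to heart, and 8.59 CPM in VGC TERM mouse 14, closest to thymus. The lowest matched liver library, at 139000 CPM, was 86.2-fold above the highest of these. The 3p strand gave the same separation, with 0 to 74.7 CPM in the 7 libraries and at least 1364 CPM in every matched one.

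Markers of the other tissues were high in these libraries. Only the miR-122 strands were left out of the profile that named the closest tissue. The markers therefore describe these libraries and are no separate support for that naming. Most are single members of longer marker lists, whose other members are not given here. The acinar miRNA miR-216a-5p was 7655 and 11990 CPM in the 2 libraries closest to pancreas and at most 169 CPM in matched liver, and miR-375-3p, abundant in pancreatic islets, was 40496 and 90368 CPM against at most 802. The cardiac miRNA miR-208a-3p was 788 CPM in HGC TERM mouse 11 and at most 11.8 CPM in matched liver. The lymphoid miRNA miR-150-5p was 33403 CPM in HGC LAR mouse 12, 13423 CPM in VGC LAR mouse 12 and 4396 CPM in VGC TERM mouse 14, against at most 1599 CPM. The epithelial miRNA miR-200b-3p was 10029 CPM in VGC LAR mouse 14, against at most 718 CPM. Conversely, the 8 libraries of other labels that were closest to liver held 151655 to 403147 CPM of miR-122-5p. It was the most abundant miRNA in all 8. They were labelled as diaphragm in 2 cases and as kidney, brown adipose tissue (BAT), spleen, GAT, lung and MAT in 1 each.

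In matched liver, more than 1 in 3 miRNA counts in the typical library came from miR-122-5p. Its share ranged from 13.9% to 50.2% over the 51 libraries, with a median of 34.9% (349018 CPM), and it ranked 1st in 51 of 51. Over all 58 liver libraries the median was 338317 CPM. The next miRNA, miR-192-5p, took 7.81% in matched liver and 7.46% in all liver libraries. It was followed in all liver libraries by let-7a-5p at 45638 CPM, miR-26a-5p at 44812 CPM and miR-22-3p at 34324 CPM. The passenger strand miR-122-3p took a median of 0.364% in matched liver (0.136% to 1.09%) and ranked between 19th and 56th with a median rank of 31. Both strands together made up a median of 35.3%. Across the 51 mice the coefficient of variation was 24.1% for 5p and 54.1% for 3p, so the passenger strand was the more variable of the pair. Depth does not limit these values, since liver libraries held 1.02 to 8.33 M miRNA counts with a median of 4.43 M.

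**Figure D1:**
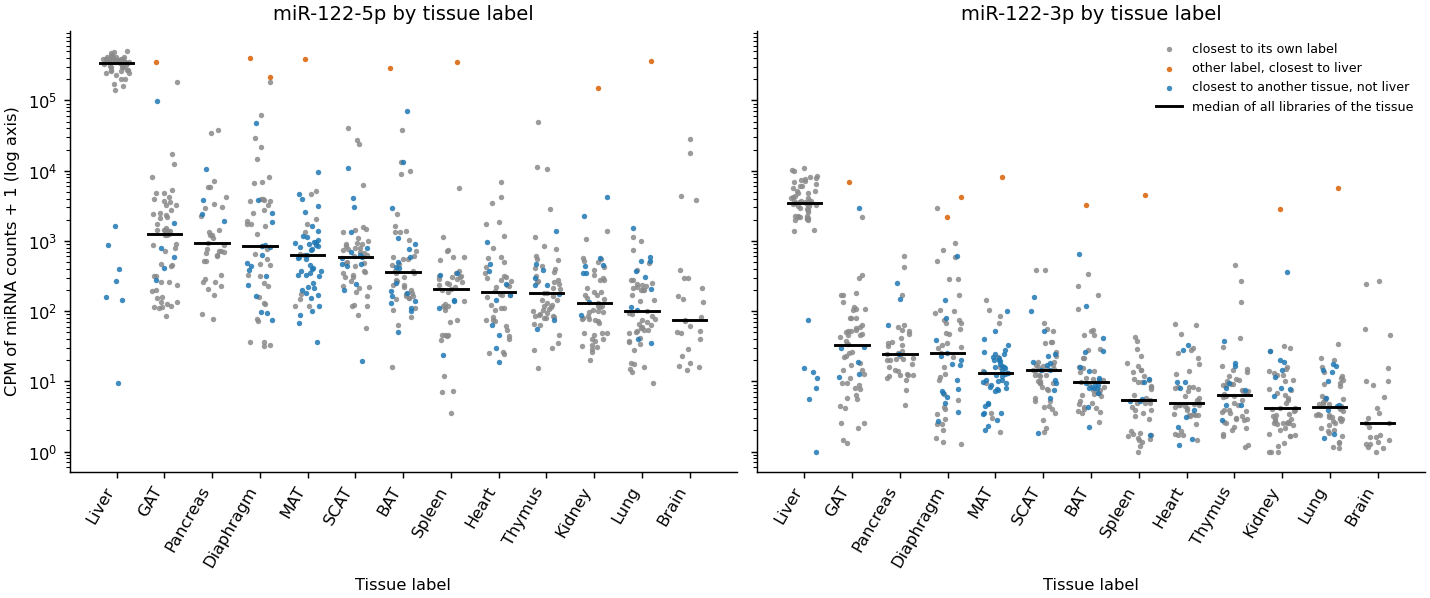
CPM of miR-122-5p (left) and miR-122-3p (right) plus 1 on a log axis by tissue label, with 1 point a library, coloured by whether its profile without miR-122 was closest to its own label, to liver under another label, or to some other tissue. The bars are medians of all libraries of a tissue; 7 liver libraries lie far below the other 51, and 8 libraries of other labels lie at the level of liver.

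Within LAR the 3 arms had overlapping levels of miR-122-5p. In matched libraries, FL ranged from 259046 to 421021 CPM with a median of 330001 (n = 8), HGC from 201066 to 425679 CPM with a median of 375348 (n = 8), and VGC from 162268 to 385883 CPM with a median of 333598 (n = 8). The range of FL lay wholly inside that of HGC. With all libraries the medians were 306071, 366125 and 296093 CPM, and each arm then held 1 or 2 of the libraries closest to another tissue. The levels of miR-122-3p overlapped as well, with matched medians of 2870 CPM in FL (1364 to 7891), 4400 CPM in HGC (1955 to 9950) and 7098 CPM in VGC (2202 to 10928).

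Within TERM the arms overlapped too. In matched libraries miR-122-5p ranged from 264307 to 501653 CPM in FL with a median of 356417 (n = 10), from 232021 to 481714 CPM in HGC with a median of 337301 (n = 9), and from 139000 to 481694 CPM in VGC with a median of 354408 (n = 8). The 3p medians were 3516 CPM in FL, 3638 CPM in HGC and 3731 CPM in VGC. With all libraries the 5p medians were 356417, 333925 and 339333 CPM. Every pair of arms overlapped for both strands.

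**Figure D2:**
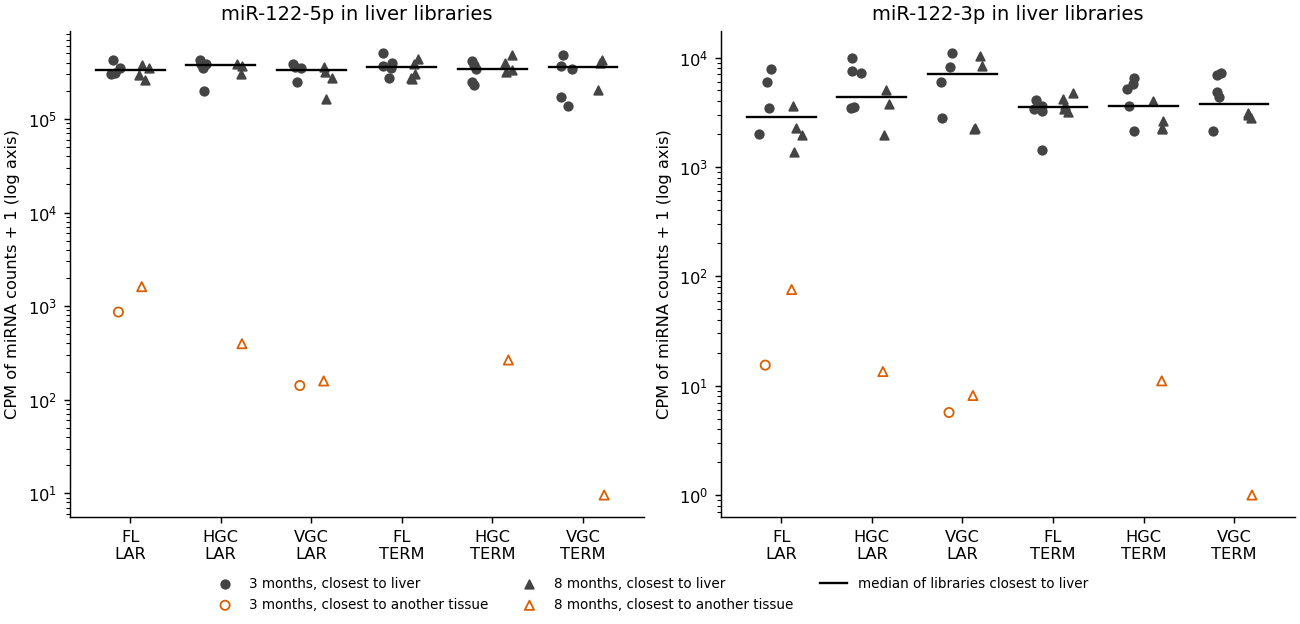
CPM plus 1 on a log axis of miR-122-5p (left) and miR-122-3p (right) in each of the 58 liver libraries by arm and extraction, with age given by the marker and the matched median by the bar. Open markers are the 7 libraries whose profile was closest to another tissue; all matched libraries lie above 100000 CPM for 5p and above 1000 CPM for 3p.

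Age was examined within each extraction over all arms. In matched LAR livers the median of miR-122-3p was 6020 CPM at 3 months (2020 to 10928, n = 13) and 2279 CPM at 8 months (1364 to 10235, n = 11). In matched TERM livers it was 4119 CPM at 3 months (1441 to 7268, n = 15) and 3142 CPM at 8 months (2212 to 4775, n = 12). The 3-month median of 3p was the higher one in all 3 arms of LAR and in HGC and VGC of TERM, but not in FL of TERM, where it was 3379 CPM at 3 months and 3699 CPM at 8 months. The ages overlapped in both extractions. For 5p, the matched LAR medians at 3 and 8 months were 330001 and 322152 CPM in FL, 384570 and 366125 CPM in HGC, and 351934 and 296093 CPM in VGC. In TERM they were 363636 and 300417 CPM in FL, 337301 and 362167 CPM in HGC, and 339333 and 399184 CPM in VGC, so the younger mice had the higher median in every arm of LAR and in FL of TERM and the older ones in both ground arms of TERM.

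None of these contrasts of miR-122 passed the test. Of 24 tests (12 contrasts by 2 strands) in edgeR, 0 had an adjusted p under 0.05 and 0 had an unadjusted p under 0.05, with DESeq2 also at 0 for both. Over the same 12 contrasts, edgeR called 2.18% of all miRNA tests, and 12.8% had an unadjusted p under 0.05. With DESeq2 these shares were 1.57% and 8.88%. They are the background for each count of 0 in 24. FL vs. HGC in LAR gave a log2 fold change of -0.36 for 5p (SE 0.97, adjusted p 0.916, 95% interval -2.33 to 1.62) and -0.87 for 3p (SE 0.95, adjusted p 0.720). There 6.11% of miRNAs were called. Without the 7 unmatched libraries the estimates were -0.18 for 5p (SE 0.21, adjusted p 0.823, 95% interval -0.60 to 0.25) and -0.69 for 3p (SE 0.39, adjusted p 0.439), with 0.244% of miRNAs called. The standard error of 5p was thus much smaller in matched libraries, and its interval no longer reached 1 log2 unit on either side.

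VGC was compared with both other arms in LAR. FL vs. VGC was 0.21 for 5p (SE 0.94) and -0.71 for 3p (SE 0.93) on the log2 scale, with 4.98% of miRNAs called. In matched libraries it was 0.19 and -0.75, with 0.0% of miRNAs called. HGC vs. VGC was 0.56 and 0.16, where 0.0% of miRNAs were called by edgeR (93 at an unadjusted p under 0.05, and 4 called by DESeq2), and 0.37 and -0.06 in matched libraries.

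In TERM, FL vs. HGC gave 0.20 for 5p (SE 0.73, adjusted p 0.993, 95% interval -1.29 to 1.68) and 0.06 for 3p (SE 0.65), with 0.345% of miRNAs called. In matched libraries the values were 0.08 (SE 0.33, 95% interval -0.60 to 0.75) and -0.08 (SE 0.23, 95% interval -0.55 to 0.40). FL vs. VGC gave 0.31 and 0.06 with 7.24% of miRNAs called, and HGC vs. VGC gave 0.11 and 0.01 with 3.56% called. In matched libraries 0.0% of miRNAs were called in each of these TERM contrasts. The size of the flight difference did not differ detectably between extractions, since the interaction of flight and extraction was -0.58 for 5p (SE 1.26, adjusted p 0.977) and -0.95 for 3p (SE 1.19, adjusted p 0.881) in edgeR, with 1.0% of miRNAs called. In matched libraries it was -0.30 and -0.69, with 0.0% of miRNAs called.

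The contrast of 8 vs. 3 months was -0.28 for 5p (SE 0.80) and -0.86 for 3p (SE 0.78) in LAR, and -0.12 (SE 0.62) and -0.53 (SE 0.55) in TERM. No miRNA was called in either (104 and 120 at an unadjusted p under 0.05 in edgeR, 1 and 4 called by DESeq2). In matched LAR livers the 3p value of -0.75 (SE 0.30) had an unadjusted p of 0.019 and an adjusted p of 0.442 in edgeR, so the lower passenger strand of older mice did not pass over all miRNAs. The interaction of age and flight was 0.26 for 5p (SE 2.04) and 0.13 for 3p (SE 1.95) in LAR, and -0.62 (SE 1.52) and 0.92 (SE 1.31) in TERM. In matched livers both LAR values changed sign, to -0.21 (SE 0.43) and -0.34 (SE 0.74), as they also did without FL mouse 2 or HGC mouse 12 alone, and the TERM values were -0.93 (SE 0.67) and 0.62 (SE 0.45).

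LAR vs. TERM gave -0.26 for 5p (SE 0.52, adjusted p 0.985) and 0.26 for 3p (SE 0.49, adjusted p 0.979) in edgeR, where 2.88% of miRNAs were called. In matched livers 5p was -0.12 (SE 0.17, 95% interval -0.47 to 0.23). The 3p strand was 0.40 (SE 0.19, unadjusted p 0.034, adjusted p 0.241). The matched 5p medians, 348780 CPM in LAR and 349198 CPM in TERM, were nearly the same. Where library size was taken over 7 RNA classes instead of miRNAs, 5p turned to 0.53 and 3p rose to 1.06 (adjusted p 0.0573 in edgeR), but the median of all miRNAs then stood at 0.77 against 0.06 in the miRNA scaling.

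**Figure D3:**
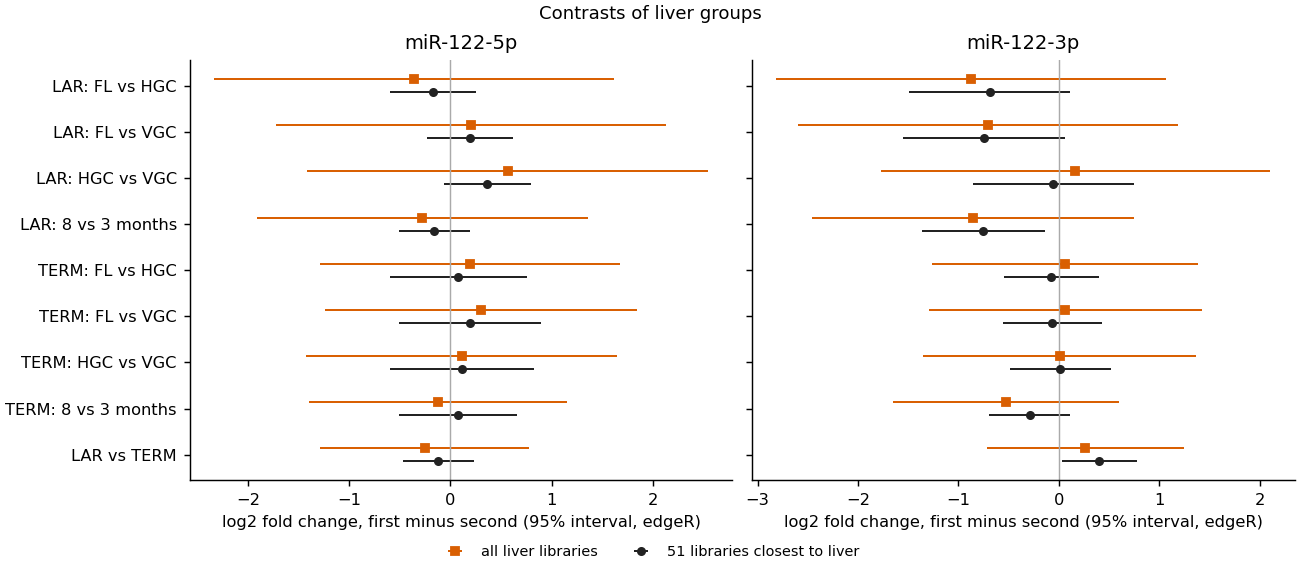
Log2 fold change (first group minus second) with its 95% interval from edgeR for miR-122-5p (left) and miR-122-3p (right) in 9 contrasts of liver groups, for all liver libraries (squares) and for the 51 matched ones (circles). The intervals of all libraries cross 0 in every contrast; those of matched libraries are narrower, and only 3p in LAR 8 vs. 3 months and in LAR vs. TERM has an interval that leaves 0 out, with adjusted p of 0.442 and 0.241.

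Other miRNAs known from liver were set beside miR-122 in the same contrasts, as a list of 12. It holds miR-192, miR-194, miR-148a, miR-802, miR-101a, miR-101b, miR-22, miR-21a and miR-33, of which several act in bile acid, lipid or glucose metabolism, and miR-21a, which is also raised in injured tissue. All 12 were tested, and 0 of 12 were called by edgeR in each of 12 contrasts, over which 2.18% of all miRNA tests were called. Of these 144 tests, 0 had an unadjusted p under 0.05 in edgeR, and DESeq2 called 0 with 4 at an unadjusted p under 0.05. Over all miRNAs, 12.8% of tests had an unadjusted p under 0.05 in edgeR and 8.88% in DESeq2, which called 1.57%. In matched livers 19 of the 144 had one, where 9.19% of all miRNA tests did, and 6 of the 19 were in LAR vs. TERM. In FL vs. HGC of LAR the list's median log2 fold change was 0.03, beside 0.01 for all miRNAs tested, and in matched livers 0.20 beside 0.08. In LAR vs. TERM it was 0.20 beside 0.06.

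In matched livers 5 of the 12 were higher in LAR than in TERM and 0 were lower, where 50 of 752 miRNAs (6.65%) were called. The log2 differences were 0.38 for miR-192-5p (SE 0.09, adjusted p 0.00694), 0.35 for miR-802-5p, 0.52 for miR-802-3p, 0.27 for miR-148a-3p and 0.46 for miR-21a-5p in edgeR. The list's median was 0.23 beside 0.03 for all. In the same contrast miR-122-5p was -0.12 with an interval that includes 0, and miR-122-3p was 0.40 on the same side as the 5, but not called. The difference between miR-122 and these miRNAs was not tested.

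The ratio of the strands was taken as a measure that library scaling cannot move. In matched liver the 5p count exceeded the 3p count by a median of 91.9-fold (15.9-fold to 242-fold), which is a log2 ratio of 6.52 with a range of 3.99 to 7.92. In all liver libraries with at least 10 counts of 3p, the mean log2 ratio in LAR was 6.44 ± 1.02 (SD, n = 10) in FL and 6.06 ± 0.76 (SD, n = 9) in HGC. The difference of 0.38 ± 0.41 (SE) had a p of 0.365 (two-sided exact permutation test). In TERM the difference was 0.27 ± 0.36 (two-sided permutation test, p = 0.459). The log2 ratio at 8 months exceeded that at 3 months by 0.27 ± 0.39 in LAR (p = 0.487) and by 0.26 ± 0.35 in TERM (p = 0.462), and LAR minus TERM was -0.43 ± 0.26 (p = 0.105), all by two-sided permutation tests. Over these 5 comparisons the adjusted p was 0.487 throughout. In matched libraries the 5 differences were 0.57, 0.08, 0.61, 0.42 and -0.26, with adjusted p from 0.362 to 0.795 by exact and other permutation tests.

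The plate on which a sample was processed, as the sample sheet gives it, moved with this ratio too. Over matched livers the median log2 ratio was 5.42 on plate 1 (n = 3) and 5.43 on plate 2 (n = 7), and then 6.29 on plate 3 (n = 12), 6.90 on plate 4 (n = 8), 6.78 on plate 5 (n = 10), 6.93 on plate 6 (n = 7) and 6.96 on plate 8 (n = 4). Plates 1 and 2 together had a median of 5.42 (3.99 to 7.35, n = 10) and the remaining plates 6.61 (4.51 to 7.92, n = 41). This grouping of plates was chosen after the values were seen and was not tested. On this grouping, which was drawn from miR-122, the strand ratios of 3 other liver miRNAs did not show such a step. Their medians on plates 1 and 2 and on the rest were 6.61 and 6.46 for miR-192 and 2.16 and 2.11 for miR-802. For miR-148a (3p over 5p) they were 10.3 and 10.0. By single plate, however, the medians ran from 6.06 (plate 8) to 6.78 (plate 5) for miR-192. Those of miR-802 ran from 1.62 (plate 1) to 2.42 (plate 2), and those of miR-148a from 9.43 (plate 6) to 10.7 (plate 4). Arms were not spread evenly over plates, as 4 of the 8 matched FL LAR livers were on plate 5 and 1 was on each of plates 1 and 2. With plate as a term and labels permuted within plates, the 5 differences in matched livers, in the order given above, were 0.45, -0.14, 0.48, -0.08 and -0.14 (adjusted p 0.775 throughout, permutation test). In all liver libraries they were 0.36, -0.14, 0.14, -0.08 and -0.10 (adjusted p 0.782 throughout, permutation test). For the levels themselves, edgeR fits of all liver libraries with plate as a term called 0 of the 24 tests of both strands (0 at an unadjusted p under 0.05, lowest adjusted p 0.712), and 3p was then -0.77 (SE 1.19) in FL vs. HGC of LAR and -1.29 (SE 0.93) at 8 vs. 3 months of LAR on the log2 scale.

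**Figure D4:**
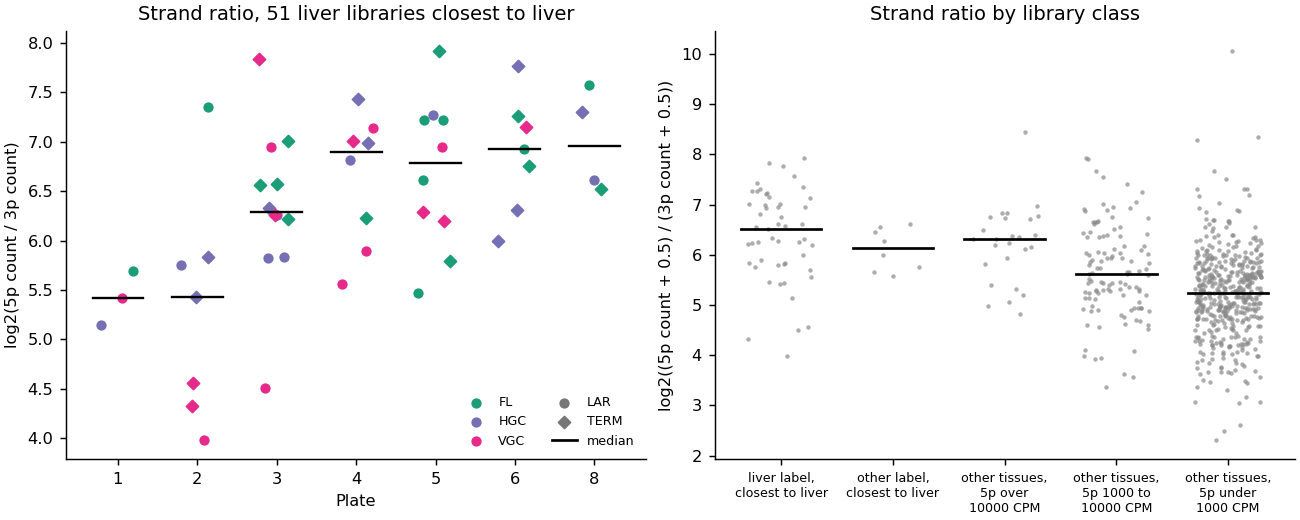
Left, log2 ratio of the 5p to the 3p count of miR-122 in the 51 matched liver libraries by plate, with arm as colour, extraction as marker and the plate median as bar; plates 1 and 2 have medians of 5.42 and 5.43 and the other plates 6.29 or more. Right, the log2 ratio (0.5 added to each count) in matched liver, in libraries of other labels closest to liver and in other tissues by their level of miR-122-5p, with medians of 6.52, 6.14, 6.32, 5.62 and 5.25 from left to right.

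Outside liver, miR-122-5p was counted in every library, mostly at a level far below that of liver. In the 620 libraries that were neither labelled liver nor closest to it, 5p was never at 0 (at least 9 counts), with a median of 304 CPM and a range of 2.57 to 183492 CPM, and 26 of them exceeded 10000 CPM. The 3p strand was at 0 in 5 of them, where a count of 0 allows up to 3 counts. By label and over all libraries of LAR and TERM together, the 5p median was highest in GAT at 1246 CPM, pancreas at 943 CPM and diaphragm at 840 CPM. It was 618 CPM in MAT, 591 CPM in subcutaneous adipose tissue (SCAT), 361 CPM in BAT, 206 CPM in spleen, 183 CPM in heart and 179 CPM in thymus. Kidney at 131 CPM, lung at 101 CPM and brain at 73.4 CPM were lowest. The interquartile ranges of all neighbours in this order overlapped except those of liver and GAT. The liver median exceeded these medians by 271-fold for GAT to 4608-fold for brain. The order differed within each extraction. Within LAR, pancreas at 682 CPM and SCAT at 600 CPM were highest, with GAT at 267 CPM. Within TERM, pancreas at 3372 CPM, diaphragm at 2520 CPM and GAT at 2224 CPM were highest. Brain was lowest in LAR, and in TERM spleen at 131 CPM and brain at 134 CPM were.

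In matched libraries of both extractions together diaphragm was highest at 1440 CPM, ahead of GAT at 1266 CPM and pancreas at 753 CPM. Brain was again lowest, and the liver median exceeded the tissue medians by 242-fold to 4754-fold. Within LAR, pancreas at 636 CPM and SCAT at 600 CPM were highest, with diaphragm at 246 CPM and GAT at 232 CPM. Within TERM, diaphragm at 3217 CPM and pancreas at 3202 CPM were highest, and spleen at 118 CPM was below brain at 134 CPM. The matched 3p medians of both extractions together ran from 33.1 CPM in GAT to 1.56 CPM in brain, and the matched liver median exceeded them by 110-fold to 2335-fold. Within LAR they ran from 19.9 CPM in pancreas to 1.14 CPM in brain, with GAT at 7.75 CPM. Within TERM they ran from 74.3 CPM in diaphragm to 0.976 CPM in spleen, with GAT at 57.5 CPM. The matched value of MAT, 652 CPM of 5p, rests on 11 libraries.

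The median of 5p was higher in TERM than in LAR in 9 of the 12 tissues other than liver, and in 9 of 12 in matched libraries. In matched libraries it was 232 CPM in LAR and 2357 CPM in TERM for GAT, 246 and 3217 CPM for diaphragm, and 636 and 3202 CPM for pancreas. It ran the other way in BAT, with 473 CPM in LAR and 238 CPM in TERM, in spleen, with 288 and 118 CPM, and in SCAT, with 600 and 574 CPM. The TERM to LAR fold ranged from 0.41 to 13.1 over the 12 tissues. In liver itself the medians were alike. By arm, the TERM median was the higher one in 8 of 12 tissues in FL, 10 of 12 in HGC and 8 of 12 in VGC over all libraries. In matched libraries it was higher in 7, 11 and 10 of 12, where some groups hold 1 or 2 libraries, and among tissues with at least 3 matched libraries in both extractions in 6 of 11, 10 of 11 and 8 of 10. In matched GAT the medians of LAR and TERM were 152 and 2297 CPM in FL, 316 and 2417 CPM in HGC and 132 and 1991 CPM in VGC, and in diaphragm 226 and 3733 CPM in FL, 246 and 3842 CPM in HGC and 456 and 1647 CPM in VGC. These are descriptions without a test, and the part of tissue handling in them was not tested.

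The median of the trace also differed with the amount of liver in a pool. Pools were grouped by the number of libraries closest to liver that they contained. In the 620 other libraries, the median of 5p was 231 CPM in the 12 pools with none (n = 187), 243 CPM in the 13 with 1 (n = 186), 302 CPM in the 12 with 2 (n = 157), 805 CPM in the 6 with 3 (n = 78) and 4335 CPM in the single pool with 4 (n = 12). The highest libraries stood at 61648, 48800, 38049, 183492 and 69933 CPM in the same order, so high values also occurred in pools with none. Among the 620 libraries, 141 (22.7%) exceeded 1000 CPM. Of the 26 above 10000 CPM, 12 were on plate 4 and 8 on plate 5, the plates with the highest medians (613 and 618 CPM, against 116 to 309 CPM on the others). The 2 highest were GAT of HGC LAR mouse 5 at 183492 CPM and diaphragm of HGC TERM mouse 2 at 180889 CPM. Both lay above the lowest matched liver library. Each was closest to its own tissue (r of 0.64 for GAT and 0.55 for diaphragm), and miR-122-5p was its most abundant miRNA. Their correlations with the liver profile, 0.29 and 0.31, were the highest among the 26. How pool, plate and tissue each contribute to the trace was not tested.

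The median strand ratio of the trace was lower than that of liver. Over the 620 libraries the median ratio was 40.2 to 1 (log2 5.33), and the tissue medians lay between 5.15 in spleen and 5.61 in SCAT. Where 3p had at least 100 counts, the median was 5.28 (n = 117). By level of 5p, the median was 5.25 under 1000 CPM (n = 479), 5.62 at 1000 to 10000 CPM (n = 115) and 6.32 above 10000 CPM (n = 26). The last value is near the 6.52 of matched liver and the 6.14 of libraries of other labels closest to liver.

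**Figure D5:**
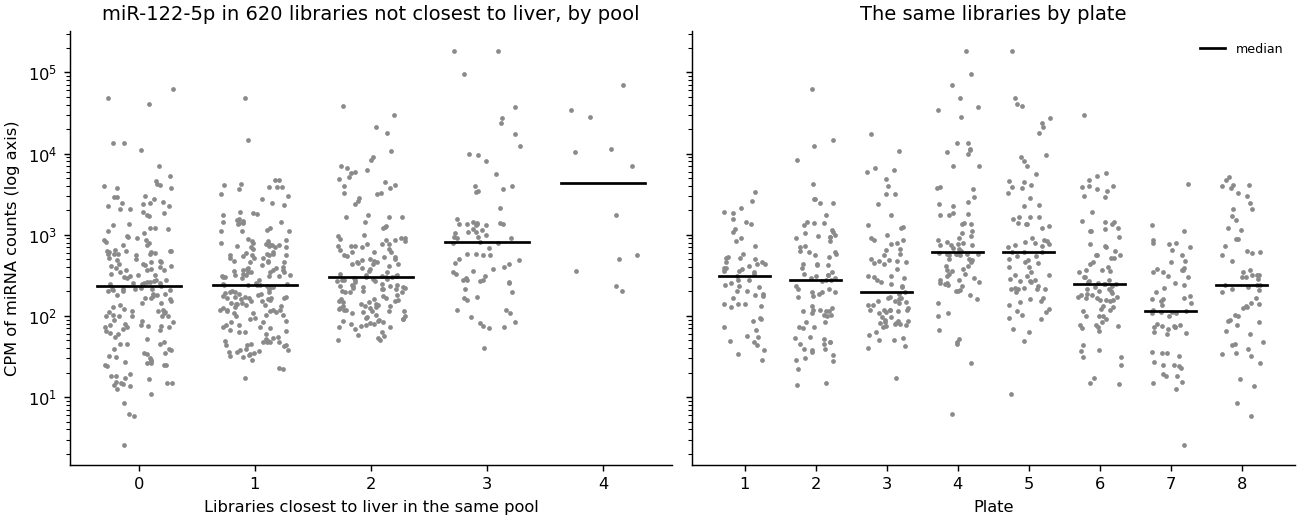
CPM of miR-122-5p on a log axis in the 620 libraries neither labelled liver nor closest to it, by the number of libraries closest to liver in the same pool (left) and by plate (right), with medians as bars. Medians run from 231 CPM with none to 4335 CPM with 4, and plates 4 and 5 hold 20 of the 26 libraries above 10000 CPM.

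Flight was compared with HGC outside liver in 24 fits of 12 tissues by 2 extractions. Each strand was called in 2 of 24 by edgeR, where 0.753% of all miRNA tests were called. Any miRNA was called in 5 of the 24 fits, and in heart of TERM (0.508%), lung of LAR (1.97%) and SCAT of LAR (5.35%) neither strand of miR-122 was among those called. In BAT of LAR, 5p was 14.9 to 287175 CPM in FL with a median of 465 (n = 10) and 62.9 to 1634 CPM in HGC with a median of 476 (n = 10). The fitted log2 fold change was 5.90 (SE 1.58, adjusted p 0.0331), with 6.92% of miRNAs called in that fit. The medians of the arms were thus nearly equal, and a single library, FL mouse 12, stood at 287175 CPM above a next value of 9042 CPM. Without it the estimate was 1.06 (adjusted p 0.609), and without HGC mouse 12 it was 5.86 (adjusted p 0.0568), so the call was lost there too. In lung of TERM, 5p was 13.9 to 1120 CPM in FL with a median of 140 (n = 10) and 76.5 to 360672 CPM in HGC with a median of 518 (n = 9). The estimate was -8.28 (SE 1.68, adjusted p 0.00679), with 3.0% of miRNAs called. Without HGC mouse 5, at 360672 CPM above a next value of 1542 CPM, it was -1.01 (adjusted p 0.486).

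The 3p strand behaved like 5p in both fits, with 4.71 in BAT and -7.75 in lung, and 0.33 and -0.68 without those libraries. Both libraries were closest to liver in a profile that leaves miR-122 out. In matched libraries 0 of 24 fits called either strand in edgeR, 2 of which, those of MAT, had a single FL library, and 0.0899% of all miRNA tests were called. At an unadjusted p under 0.05, 10 of these 24 fits passed for 5p, with FL higher in 4 and lower in 6, and 8 for 3p, with FL higher in 2 and lower in 6, and the lowest adjusted p was 0.117 in edgeR. In the same fits 8.65% of all miRNA tests had an unadjusted p under 0.05, and neither strand passed that threshold in the 2 fits of MAT. With DESeq2 and all libraries, 1 fit was called for each strand, 5p in lung of TERM at -1.79 (adjusted p 0.0484), where 3.4% of miRNAs were called, and 3p in pancreas of LAR at 2.00 (adjusted p 0.0473), where 0.246% were called. In matched libraries edgeR gave -0.14 (adjusted p 0.997) for 5p in lung of TERM. In edgeR the 3p value in pancreas of LAR was 1.92 (adjusted p 0.384) in all libraries and 1.64 (adjusted p 0.612) in matched ones.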

How the data were processed

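Total RNA of each sample was made into small RNA libraries, sequenced in pools, and mapped by the authors to GRCm39 and miRBase 22.1 with miRMaster 2.0. The authors deposited estimated counts per miRNA without normalization, of which 0.790% carry a fraction (0 in the miR-122 rows), and whole counts for 6 other RNA classes. The circRNA and scaRNA tables were not used. Libraries held 0.181 to 30.5 M miRNA counts (median 3.88 M). Mice are the replicates, and a mouse number shared by arms names different animals.

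Estimated counts were rounded, and miRNAs that reached 5 reads in 10% or more of an arm's libraries were fitted per contrast with edgeR 4.0.16 (quasi-likelihood, TMM) in R 4.3.3, with DESeq2 1.42.0 as an alternative and Benjamini-Hochberg adjustment over all miRNAs tested. CPM, ratios and permutation tests (exact, or 100000 resamples, 20000 within plates) used Python 3.11.15 with scipy 1.17.1. The fits were also run on counts simulated from the mean levels of liver LAR libraries, where no library was unlike its label. A library counts as unmatched when its log2(CPM + 1) profile, centred on the tissues, has a higher Pearson correlation with the median profile of another tissue than with that of its label. Named are both strands, the 5 miRNAs most alike over tissue medians (median of at least 10 CPM in some tissue), the 5 most abundant in liver, a list of 12 and, for libraries unlike their label, textbook tissue markers. Members, lists and tests were chosen with earlier results of these data known. Alternatives changed scaling, filter, tool, libraries, plate and block.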

Additional observations from a re-analysis of the deposited data

Results flagged for a closer look

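Within each group of 4 to 10 libraries of a tissue, arm and extraction, the highest and the lowest library were compared with the rest by the gap to the next value relative to the range. For liver, 7 of 12 sets of group and strand held such a library, and outside liver 32 of 142 did, where chance gives about 1 in 20. Of the sets outside liver, those of the comparisons described are given here.

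Liver HGC LAR mouse 12 lay far below its group with 396 CPM of miR-122-5p and 12.5 CPM of 3p. Liver HGC TERM mouse 11 did so with 265 CPM of 5p and 10.1 CPM of 3p, and liver VGC TERM mouse 14 with 8.59 CPM of 5p and 0 CPM of 3p. All of these libraries were closest to another tissue in a profile without miR-122. Liver FL TERM mouse 3 was closest to liver and lay below its group in the passenger strand alone, with 1441 CPM of 3p.

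BAT FL LAR mouse 12 lay far above its group with 3268 CPM of 3p. Lung HGC TERM mouse 5 lay above its group with 360672 CPM of 5p and 5630.5 CPM of 3p. Both were closest to liver and in mixed pools.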

How the results depend on the processing

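Over 302 alternative fits of the 24 liver tests, none was called and the lowest adjusted p was 0.0573 (edgeR), and 36 changed sign, to values between -0.34 and 0.53. The causes of these changes were not tested. Without libraries closest to another tissue, and without mixed pools, the log2 values turned to -0.056 and -0.057 for 3p in LAR HGC vs. VGC, to -0.21 and -0.21 for 5p and -0.34 and -0.34 for 3p in the LAR interaction of age and flight, to 0.075 in both for 5p in TERM 8 vs. 3 months, and in TERM for 3p to -0.077 in both in FL vs. HGC and -0.064 in both in FL vs. VGC. With library size over 7 RNA classes they turned to -0.027 (5p, LAR FL vs. VGC), -0.074 (3p, LAR HGC vs. VGC), 0.14 (5p, TERM 8 vs. 3 months), -0.025 (3p, TERM HGC vs. VGC) and 0.53 (5p, LAR vs. TERM). That scaling gave median CPM in liver of 29977 for 5p and 287 for 3p, and moved the median of all miRNAs by over 0.1 in most contrasts, for example to -0.42 in LAR FL vs. VGC. With plate as a term they turned to -0.039 (5p, LAR FL vs. VGC), -0.18 (5p, TERM FL vs. HGC), 0.50 (5p, TERM interaction of age and flight) and 0.30 (5p, LAR vs. TERM), and the strand ratio turned to -0.14 (TERM FL vs. HGC) and -0.085 (TERM 8 vs. 3 months). Wilcoxon tests with geometric medians gave -0.14 (3p, LAR HGC vs. VGC) and, in TERM HGC vs. VGC, -0.012 (3p) and -0.023 (5p), and DESeq2 and RLE size factors gave -0.0059 there for 3p.

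Leaving out 1 liver library at a time, the interactions of age and flight ranged from -0.19 to 0.62 (5p) and -0.29 to 0.78 (3p) in LAR, turning sign for both strands without FL mouse 2 or HGC mouse 12 and for 3p alone without FL mouse 3, FL mouse 5, HGC mouse 4 or HGC mouse 5, and from -0.95 to -0.20 (5p) and 0.59 to 1.19 (3p) in TERM. Mouse numbers do not pair the arms: same-numbered livers correlated by -0.59 to 0.71 in LAR, with 11 of 28 pairs over 0.1, and by -0.50 to 0.39 in TERM, with 8 of 28. With the mouse number as a replicate block no test was called, and 3p in HGC vs. VGC turned to -0.045 in LAR and -0.029 in TERM. Age contrasts could not be fitted with the block because the number fixes the age.

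Outside liver the fits called for each strand went from 2 to 1 with DESeq2, to 0 without libraries closest to another tissue and to 0 without mixed pools, and were 1 to 2 when 1 library of BAT in LAR, lung in TERM, brain or pancreas in TERM was left out, the fits where this was run. They fell to 1 without BAT FL LAR mouse 12, BAT HGC LAR mouse 12 or Lung HGC TERM mouse 5. Leaving out libraries outside liver and permuting within plates were added after seeing the data. Low 3p counts outside liver (median 27 a library) limit the strand ratio there.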
